A study of Mus musculus with 2 samples.

Results

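The tripartite motif (TRIM) family of ubiquitin ligases was examined in mouse bone marrow-derived macrophages that had been treated with lipopolysaccharide (LPS). Its members were the entries of the deposited gene table whose symbol is Trim followed by a number and at most 1 lower-case letter, 52 of 16218 genes. The TKO library came from cells with 3 related microRNA clusters targeted for deletion. Their labelled genotype was mir-106a~363-/- and mir-106b~25-/-, with mir-17~92flox/flox and Lyz2-Cre. The WT library came from Lyz2-Cre cells, so both genotypes carry the Cre recombinase. Lyz2 drives the Cre in myeloid cells, so mir-17~92 is meant to be lost by recombination there, while the labels give the other clusters as deleted outright. The extent of that recombination is not given. Both libraries are labelled C57BL/6J. In both, marrow cells had been grown for 5 days with 10% serum and 10% L929 supernatant and then given 10 ng/ml LPS for 3 h. The labels used here give neither age, nor sex, nor the number of mice behind a library. Each genotype had 1 library of polyadenylated RNA, and no unstimulated library was analysed here. Every difference below therefore compares 2 libraries, has no replicate check and carries no p-value of its own.

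A TRIM protein is built from a RING finger, 1 or more B-boxes and a coiled coil, followed by a C-terminal domain that differs between members. The RING binds a ubiquitin-conjugating enzyme, and the C-terminal domain, most often of the SPRY type, binds the target. Many members are induced by interferon. Several attach ubiquitin to sensors and adaptors of the antiviral and Toll-like receptor pathways, some to activate and some to restrain them, and others work on chromatin, microtubules or muscle.

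Total counts were 10836855 in the TKO library and 10764519 in the WT library. TRIM genes took 25361 counts in TKO and 24948 in WT, which is 0.234% and 0.232% of the library. Levels are given as FPKM, the authors' count per kilobase of transcript and 1000000 fragments. Ratios compare CPM, a gene's count scaled to 1000000 in its library, and stand with a 95% exact counting interval that covers counting error only. A gene counted as measured when its mean over both libraries reached 1 CPM, and 38 of the 52 members passed. The cells carried macrophage markers in both libraries, such as Csf1r at 716 FPKM in TKO and 648 FPKM in WT. Of the 7 macrophage markers listed, 3 had intervals wholly above equality (beside 14.1% of all measured genes) and 1 wholly below it (beside 20.2%). The median log2 ratio of TKO over WT of these 7 was −0.02. Of 7 striated muscle markers, 6 were at 0 or had no entry, and the other, Acta1, had 4 counts in TKO and 5 in WT. Fibroblast and stroma markers differed, with 152 CPM in TKO and 394 CPM in WT when summed over the 7 listed. Of these, 5 were at least 1.5-fold lower in TKO, Pdgfrb had 510 and 478 counts in TKO and WT, and Lum had 1 and 2. The part of that difference in the TRIM values was not tested, and fewer cells of a type cannot be told apart from less RNA per cell. The deletion itself could not be checked from these counts, since mature microRNAs are not measured in polyadenylated RNA: Mir17hg, the host transcript of mir-17~92, had 16 counts in each library.

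In TKO and WT alike, the family was dominated by 3 interferon-linked members. Trim30a, a mouse ligase known to restrain Toll-like receptor signalling by lowering TAB2 and TAB3, stood at 104 FPKM in TKO and 87.7 FPKM in WT. Trim21, a cytosolic antibody receptor that recognises antibody-coated virus, stood at 99.1 FPKM in TKO and 94.7 FPKM in WT. Trim25, the ligase best known for activating the RNA sensor RIG-I, stood at 65.1 FPKM in TKO and 80.2 FPKM in WT. Trim30a ranked first and Trim21 second in TKO, and this order was the other way in WT. A gap followed, and 12 further members lay between 16.3 and 35.8 FPKM in TKO and between 15.9 and 34.7 FPKM in WT. These included Trim13, anchored in the endoplasmic reticulum (35.2 FPKM in TKO and 34.0 FPKM in WT), Trim14, a RING-less adaptor at MAVS (32.4 FPKM in TKO and 34.7 FPKM in WT), and Trim8, which acts on the kinase TAK1 (23.8 FPKM in TKO and 24.5 FPKM in WT). The order within that band differed between the libraries: Trim12a led it in TKO and Trim14 led it in WT. Trim36, best known as a microtubule-associated ligase, was among them at 27.4 FPKM in TKO and 25.0 FPKM in WT.

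**Figure D1:**
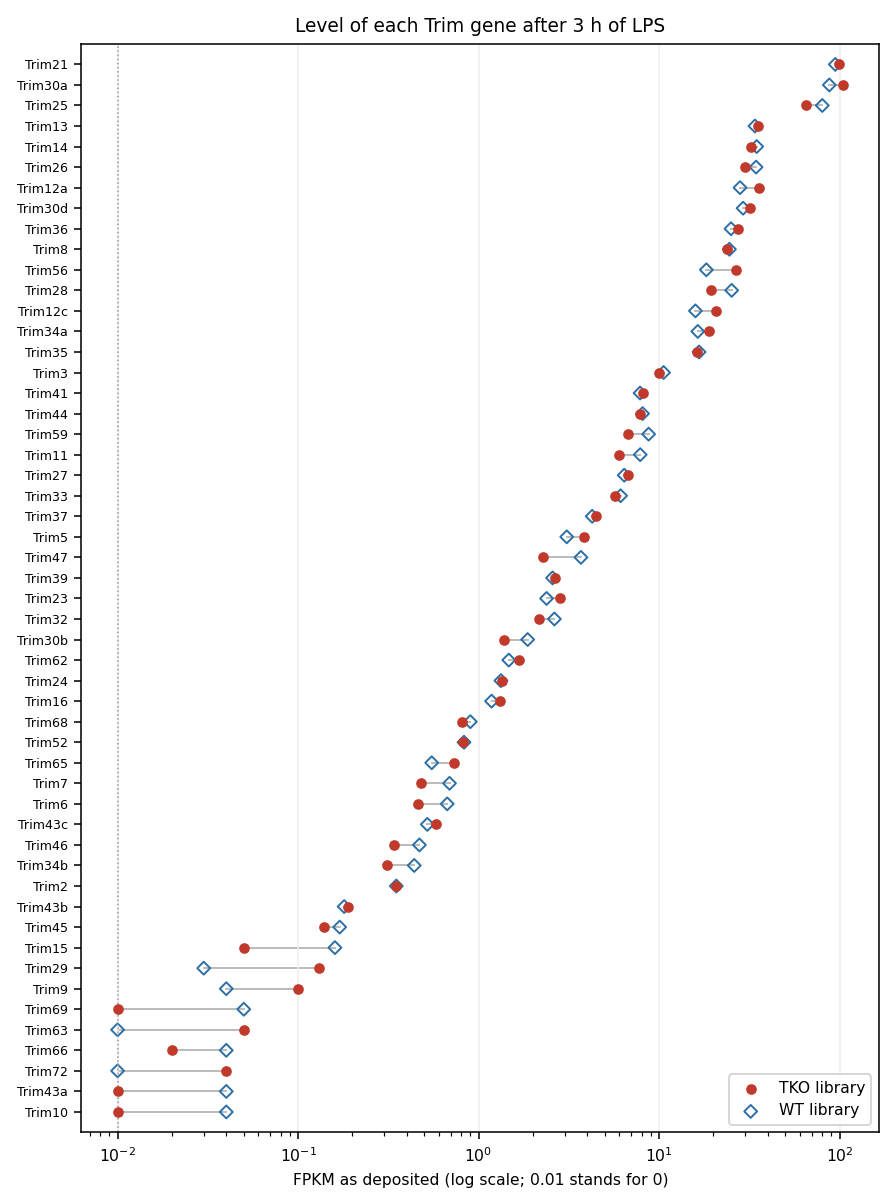
Deposited FPKM (log axis) of all 52 Trim genes, ordered by their mean, with the TKO library as filled circles and the WT library as open diamonds. Trim30a, Trim21 and Trim25 lie apart at the top, from 65.1 to 104 FPKM in TKO and from 80.2 to 94.7 FPKM in WT, and the pairs of points separate widely only where counts are few.

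At the other end, 14 entries had a mean under 1 CPM and summed to 42 counts in TKO and 45 in WT, and the counting interval of each of them included equality. They included the muscle ligase genes Trim63 (MuRF1) and Trim72, which helps to reseal muscle membranes, each with 1 count in TKO and 0 in WT. Trim10 of erythroid cells, the centrosomal Trim69 and Trim43a each had 0 counts in TKO and 1 in WT. These counts are under the floor of 3 counts, so no fold is given for them. Trim72 lies on chromosome 7 (128003462 to 128011393) near Itgax, the CD11c integrin gene, which had 2019 counts in TKO and 291 in WT, while Trim72 was under the floor in both. The other entries under 1 CPM were Trim7, Trim9, Trim15, Trim29, Trim34b, Trim43b, Trim45, Trim52 and Trim66. A further 16 mouse TRIM genes of the RefSeq table, among them Trim38, Trim31 and Trim30c, were not analysed here.

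Differences between the libraries were small across the family. A gene was called when it was at least 1.5-fold apart after adding 0.5 CPM and its interval excluded equality. Of the 38 measured members, 0 were called higher in TKO, beside 2.83% of all 11662 measured genes, and 1 was called lower, beside 5.26%. The 1 called member was Trim47, a SPRY-type ligase, with 54 counts in TKO and 87 in WT (2.27 and 3.69 FPKM), a level 1.62-fold lower (1.14 to 2.32). Across the measured members the log2 ratios had a median of 0.04, with a range of −0.65 to 0.53 and a standard deviation of 0.27 over genes. Over all measured genes the median was −0.04 and the standard deviation 0.43. By the interval alone, with no minimum fold, 7 members were higher, beside 14.1% of all measured genes, and 6 were lower, beside 20.2%. The 25 others had intervals that included equality. Calls by the interval alone grow with the count: among the 3644 genes at 50 CPM or more, 27.3% were higher and 27.9% lower, and of the 14 TRIM genes at that level 5 were higher and 3 lower. With TMM scaling, the whole table's 1649 higher and 2351 lower genes by the interval became 2155 and 1849, and the TRIM counts became 8 and 6. A similar family of ligases, the RING finger genes named Rnf with a number, had 0 of 59 measured members called higher and 2 lower, with a median log2 ratio of 0.02.

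**Figure D2:**
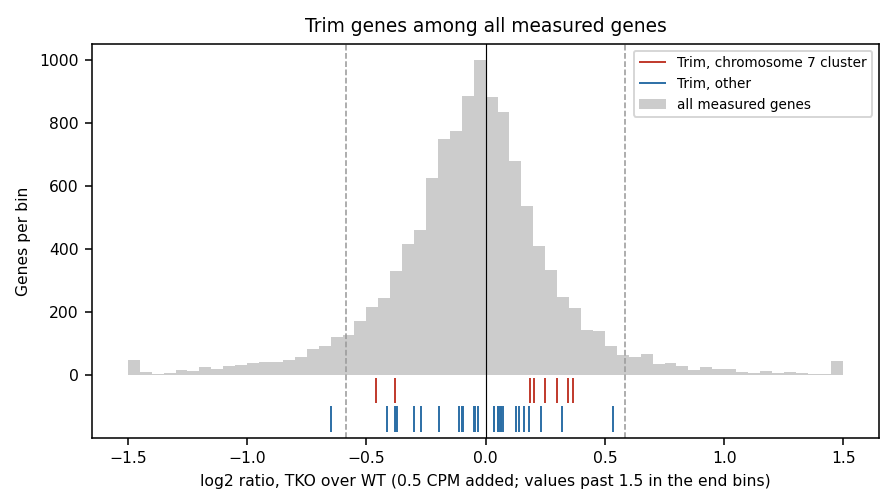
Number of measured genes in bins of the log2 ratio of TKO over WT (grey, 0.5 CPM added, dashed lines at 1.5-fold). Ticks under the axis mark the Trim genes, the upper row for the chromosome 7 cluster and the lower row for the others, and only Trim47 lies past a dashed line.

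The members were also read by position. On chromosome 7, 9 entries lie between 104218795 and 104507853, the span known for the mouse relatives of TRIM5, a factor that blocks incoming retroviral capsids in primates. Summed over this cluster, TKO had 7698 counts and WT 6438, a ratio of 1.19 (1.15 to 1.23). Summed over the 43 members elsewhere, TKO had 17663 counts and WT 18510, a ratio of 0.948 (0.928 to 0.968). Such sums are weighted to abundant genes, here Trim25 with 3987 counts in TKO and 4881 in WT. Taken gene by gene, the 30 measured members elsewhere had a median log2 ratio of 0.002, with 15 above 0 and 15 below. Of the 8 measured cluster genes, 5 were higher by the interval (62.5%) and 0 lower, beside 14.1% and 20.2% of all measured genes, or 27.3% and 27.9% of those at 50 CPM or more. Outside the cluster 2 of 30 were higher (6.67%) and 6 lower, near or under the shares of all measured genes.

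Trim30a had 4293 counts in TKO and 3586 in WT, 1.19-fold higher (1.14 to 1.24). Its relative Trim30d had 1268 counts in TKO and 1108 in WT, 1.14-fold higher (1.05 to 1.23). Of the 5 genes higher by the interval, the TRIM5 relatives Trim12c and Trim12a had the highest ratios. Trim12c had 837 counts in TKO and 644 in WT (20.6 and 15.9 FPKM), 1.29-fold higher (1.16 to 1.43). Trim12a had 597 counts in TKO and 466 in WT (35.8 and 28.1 FPKM), 1.27-fold higher (1.13 to 1.44). Trim34a, a relative of human TRIM34, had 533 counts in TKO and 460 in WT, 1.15-fold higher (1.01 to 1.31). For Trim5 the counts were 104 in TKO and 83 in WT, a ratio of 1.24 (0.924 to 1.68) whose interval includes equality. These 6 genes thus had ratios between 1.14 and 1.29, none of them at 1.5-fold. The remaining 3 entries of the cluster were scarce and had ratios under 1, with intervals that included equality. Trim30b had 42 counts in TKO and 56 in WT (ratio 0.745, 0.487 to 1.13), Trim6 had 19 in TKO and 28 in WT (ratio 0.674, 0.356 to 1.25), and Trim34b had 5 in TKO and 7 in WT.

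**Figure D3:**
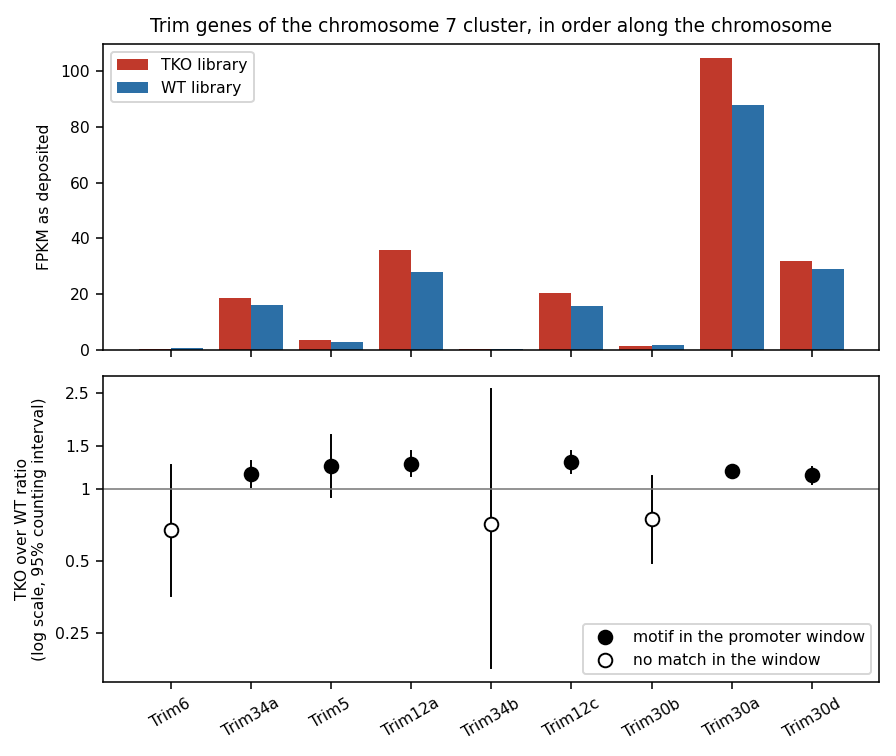
The 9 Trim genes of the chromosome 7 cluster in their order along the chromosome, with deposited FPKM above (TKO bars left of WT bars) and the TKO over WT ratio of CPM with its 95% counting interval below (log axis). Filled circles mark the 6 genes whose promoter window holds the motif GAAANNGAAA, with ratios of 1.14 to 1.29, and open circles the 3 genes without a match, with ratios of 0.674 to 0.745. The intervals of these 3 scarce genes and of Trim5 include equality, and Trim34b was under 1 CPM. The motif was searched after the values were known.

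Several of these genes are near copies, so their reads can be divided among them. The exact overlap was measured in runs of 50 bases of each gene's longest coding transcript in GENCODE M21. Trim34a shared 41.3% of its runs with Trim34b. Trim5, Trim12c and Trim12a shared 38.1%, 33.7% and 23.5% of theirs with other genes, mostly with one another. Trim30a shared 6.53%, Trim30d 8.29%, Trim30b 0.991% and Trim6 0%. Sums over each set of related genes do not depend on how reads are divided within the set, but reads shared with genes outside it can still move them. Trim12a, Trim12c and Trim5 together had 1538 counts in TKO and 1193 in WT, a ratio of 1.28 (1.19 to 1.38). The Trim30 set (a, b and d) had 5603 in TKO and 4750 in WT, a ratio of 1.17 (1.13 to 1.22), and Trim34a with Trim34b had 538 in TKO and 467 in WT, a ratio of 1.14 (1.01 to 1.30). The 2 measured genes within 1000000 bases of the cluster that are not its members were Olfr613, with 170 counts in TKO and 167 in WT, and Fam160a2, with 79 in TKO and 97 in WT.

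The promoters of the 6 cluster genes with ratios above 1 share a feature that the choice of members did not use. Each holds the 10 letters GAAANNGAAA, or their reverse complement, within 250 bases before to 50 bases after an annotated start (RefSeq, GRCm38.p6). This is the core of the interferon-stimulated response element, which interferon regulatory factors are known to bind. The motif was searched on both strands after the values were known, overlapping matches were counted, and a match in letters is no proof of a bound site. Only these exact letters were searched, so a promoter without a match may still hold a variant of the element. Shown 5′ to 3′ on the gene's strand are the 70 bases before and 30 bases after the start, with the matched letters in capitals.
Trim34a: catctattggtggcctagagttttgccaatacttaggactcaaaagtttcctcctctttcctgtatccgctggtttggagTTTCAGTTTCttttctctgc
Trim5: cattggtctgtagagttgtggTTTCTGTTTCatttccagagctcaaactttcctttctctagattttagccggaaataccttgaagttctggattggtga
Trim12a: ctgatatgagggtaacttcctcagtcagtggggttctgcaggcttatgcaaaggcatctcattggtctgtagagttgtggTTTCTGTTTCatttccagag
Trim12c: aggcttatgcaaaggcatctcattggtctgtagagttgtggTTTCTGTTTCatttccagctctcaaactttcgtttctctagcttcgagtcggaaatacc
Trim30a: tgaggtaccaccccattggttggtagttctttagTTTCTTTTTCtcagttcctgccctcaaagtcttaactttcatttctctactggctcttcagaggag
Trim30d: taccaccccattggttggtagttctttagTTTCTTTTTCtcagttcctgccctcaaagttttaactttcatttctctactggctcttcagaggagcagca
Trim30b: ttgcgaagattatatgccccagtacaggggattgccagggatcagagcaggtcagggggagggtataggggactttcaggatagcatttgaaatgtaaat
Trim6: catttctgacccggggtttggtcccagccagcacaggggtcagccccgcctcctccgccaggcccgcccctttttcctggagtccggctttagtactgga
Trim34b: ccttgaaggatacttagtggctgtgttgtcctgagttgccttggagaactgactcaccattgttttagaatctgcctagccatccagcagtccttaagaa

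In order, these windows are chr7:104244387-104244486 (+), chr7:104288077-104288176 (−), chr7:104315466-104315565 (−), chr7:104353320-104353419 (−), chr7:104465164-104465263 (−), chr7:104507820-104507919 (−), chr7:104358617-104358716 (−), chr7:104218725-104218824 (+) and chr7:104329401-104329500 (+). The first base of the match lay 49 bases before the start in Trim5, 41 before it in Trim30d, 36 in Trim30a and 29 in Trim12c, and at base 11 of the transcript in both Trim12a and Trim34a. A second annotated start of Trim30a holds the match at its base 3. The 6 matches are not independent, because several of the promoters are copies of one another. The whole promoters, from 250 bases before to 50 after the start, were compared. Trim5 and Trim12a share an identical stretch of 241 bases that holds the motif, and Trim30a and Trim30d one of 118 bases. The longest stretch that Trim12c shares with Trim5 or with Trim12a is 71 bases and does not hold the motif. In the printed windows, however, the bases on both sides of the Trim12c motif also match those of Trim5 and Trim12a. Among the promoters of Trim30b, Trim6 and Trim34b no stretch of over 11 bases was shared with another promoter of the cluster.

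Outside the cluster the motif was found in Trim2, and at 2 overlapping places in each of Trim26 and Trim21. The Trim21 window, chr7:102565453-102565552 (−), is printed with both matches in capitals, from bases 14 and 20 of the transcript, because Trim21 is among the most abundant members. The windows of Trim56 and Trim25 follow, chr5:137116178-137116277 (−) and chr11:88999333-88999432 (+), since these genes differed without a match.
Trim21: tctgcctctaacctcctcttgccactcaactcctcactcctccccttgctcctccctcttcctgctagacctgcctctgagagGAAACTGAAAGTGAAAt
Trim56: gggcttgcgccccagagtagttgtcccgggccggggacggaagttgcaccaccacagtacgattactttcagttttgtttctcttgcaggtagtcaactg
Trim25: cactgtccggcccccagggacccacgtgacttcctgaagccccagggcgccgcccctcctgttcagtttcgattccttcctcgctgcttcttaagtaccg

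In all, 9 of 28 measured TRIM genes with a promoter in the RefSeq table held it (32.1%), against 385 of 9352 measured genes (4.12%). The 9 had a median log2 ratio of 0.20, and the 19 measured TRIM genes with a promoter and no match had a median of −0.05. Over the whole table the matched genes were close to equality: the median was −0.01 over the 385 genes with a match and −0.05 over the 8967 without. By the interval, 22.1% of the 385 were higher and 21.0% lower, against 13.6% and 19.9% of those without. Such shares grow with the count, and among all genes at 50 CPM or more they were 27.3% and 27.9%. In TKO the 385 genes held 768168 counts and the 8967 without a match held 8038973, and the comparison was not adjusted for level. Trim2, a ligase of neurofilament light chain, had 28 counts in TKO and 27 in WT, with a ratio of 1.03 (0.585 to 1.82). Trim26, with 2 matches, was lower by the interval (ratio 0.874). The 3 matched genes outside the cluster had log2 ratios of 0.06 for Trim21, 0.04 for Trim2 and −0.19 for Trim26, so the median of 0.20 rests on the cluster.

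Among the 10 members that act on nucleic acid sensing, 1 was higher (10.0%, beside 14.1% of all measured genes) and 2 were lower (beside 20.2%) by the interval. These shares are near those of all genes. Trim56, which modifies the DNA sensor cGAS and its adaptor STING, had the highest ratio of all measured members. It had 1053 counts in TKO and 721 in WT (26.6 and 18.3 FPKM), 1.45-fold higher (1.32 to 1.60), just short of the 1.5-fold line. Trim56 lies on chromosome 5 (137111286 to 137116462), and its promoter window held no exact match to the motif. Trim25, on chromosome 11 (88999403 to 89020294), had 3987 counts in TKO and 4881 in WT, 1.23-fold lower (1.18 to 1.29). Trim26, a ligase of the transcription factor IRF3, had 1052 counts in TKO and 1196 in WT, 1.14-fold lower (1.05 to 1.24).

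The other sensing members lay close to equality or were too scarce to tell. Trim21 had 2994 counts in TKO and 2843 in WT, a ratio of 1.05 (0.993 to 1.10), and Trim14 had 1130 in TKO and 1204 in WT, a ratio of 0.932 (0.859 to 1.01). Trim13 and Trim35 had ratios of 1.04 (0.925 to 1.17) and 0.978 (0.877 to 1.09). Trim65, which ubiquitinates the RNA sensor MDA5, had 24 counts in TKO and 18 in WT, and Trim23, which carries a GTPase domain of the ARF type, had 131 in TKO and 110 in WT. Trim32, an NHL-repeat ligase, had 75 counts in TKO and 91 in WT.

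**Figure D4:**
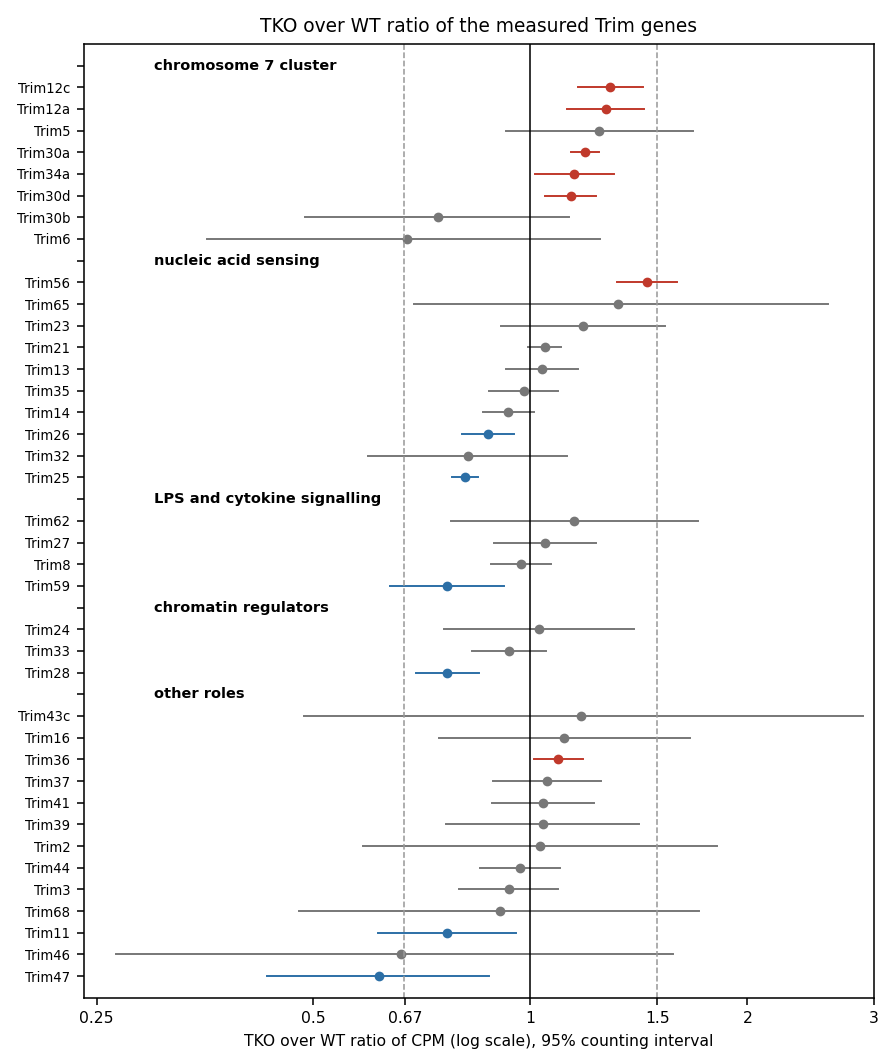
TKO over WT ratio of CPM (log axis) with its 95% counting interval for the 38 measured Trim genes, grouped by role, with dashed lines at 1.5-fold. Red intervals lie wholly above equality (7 genes, 5 of them in the chromosome 7 cluster), blue intervals wholly below it (6 genes), and only Trim47 is past a dashed line with an interval that excludes equality.

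Of the 4 members grouped under LPS and cytokine signalling, 0 were higher and 1 was lower by the interval. Beside them stand 14.1% and 20.2% of all measured genes, and a count of 1 in 4 is near these shares. Each member was placed in 1 group only. Trim30a, which also acts on Toll-like receptor signalling and was higher by the interval, was counted with the chromosome 7 cluster. Trim59, a membrane-anchored protein that binds the adaptor ECSIT, had 213 counts in TKO and 276 in WT, 1.30-fold lower (1.09 to 1.57). Trim8 had 845 counts in TKO and 866 in WT, Trim27, a ligase of the receptor NOD2, had 308 in TKO and 292 in WT, and Trim62, a ligase of CARD9, had 59 in TKO and 51 in WT. The intervals of these 3 ratios included equality.

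Of the chromatin regulators, Trim28 was lower. Trim28 (KAP1), which recruits silencing complexes to KRAB zinc finger proteins at retroelements, had 686 counts in TKO and 889 in WT (19.4 and 25.2 FPKM), 1.30-fold lower (1.18 to 1.44). Its relatives Trim33, which acts on SMAD4, and Trim24, a nuclear receptor cofactor, had ratios of 0.934 (0.831 to 1.05) and 1.03 (0.758 to 1.39). Trim66, a relative known from male germ cells, had 2 counts in TKO and 4 in WT.

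Among the 25 members with other roles, 13 were measured. Trim11, a SPRY-type ligase, had 149 counts in TKO and 193 in WT, 1.30-fold lower (1.05 to 1.63). Trim36 had 1363 counts in TKO and 1238 in WT, 1.09-fold higher (1.01 to 1.18). The other measured members of this group apart from Trim47 had ratios between 0.662 (Trim46, 10 counts in TKO and 15 in WT) and 1.17 (Trim43c, 13 and 11 counts), and each of their intervals included equality. Among them were Trim37 of centrosomes and peroxisomes (277 counts in TKO and 261 in WT), the NHL-repeat ligase Trim3 (312 and 332) and Trim41 (311 and 297). Trim44, which lacks a RING, had 482 and 495 counts, and Trim16, which works with galectin-3 at damaged lysosomes, had 56 and 50. Of the 4 entries in the major histocompatibility region of chromosome 17, Trim26 and Trim39 (89 counts in TKO and 85 in WT) were measured, while Trim15 had 1 and 3 counts and Trim10 had 0 and 1.

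The authors' deposited table, which compares the same 2 libraries by a test not given in the sources used here, lists 10 of the 52 entries at an adjusted value of at most 0.05. Of these, the authors' deposited table gives 5 as higher in TKO (Trim56, Trim12c, Trim12a, Trim30a and Trim30d) and 5 lower (Trim25, Trim28, Trim26, Trim59 and Trim47). Over all genes that table holds 1250 higher and 1753 lower entries at this value.

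Lists of related genes were read in the same way. Of 4 TRIM proteins that carry another symbol, 3 were measured, with a median log2 ratio of 0.39. Of these 3, 1 was called higher (beside 2.83% of all measured genes) and 0 lower (beside 5.26%). It was Mid1, a microtubule-associated ligase of the X chromosome, with 428 counts in TKO and 192 in WT (2.21-fold, 1.86 to 2.64). The inflammasome protein gene Mefv had 910 counts in TKO and 689 in WT, 1.31-fold higher (1.19 to 1.45). Pml, the organiser of nuclear bodies, had 1410 in TKO and 1584 in WT, 1.13-fold lower (1.05 to 1.22), and Mid2 had 6 counts in each library. Of 22 measured genes of interferon induction and response, 1 was called higher (4.55%, beside 2.83% of all measured genes) and 0 lower (beside 5.26%). Their median log2 ratio was −0.04, and counts this small are near the shares of all genes. The called gene was the nucleic acid sensor Zbp1, with 2434 counts in TKO and 1497 in WT (1.62-fold, 1.51 to 1.72). By the interval 8 of the 22 were higher (36.4%, beside 27.3% of all genes at 50 CPM or more), such as Irf7 (1.24-fold, 1.18 to 1.30), and 8 were lower (36.4%, beside 27.9%), such as the receptor chain Ifnar2 (1.43-fold, 1.35 to 1.51).

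Transcripts of targets of the members that differed were also read beside them. The target proteins, on which the ligases act, were not measured, and an effect of a ligase on its target was not tested. Mb21d1, which encodes cGAS, a target of Trim56, had 527 counts in TKO and 754 in WT, 1.44-fold lower (1.29 to 1.61). Tmem173, which encodes STING, the other target named for Trim56, had 327 in TKO and 333 in WT, a ratio of 0.975 (0.835 to 1.14). Ddx58, which encodes RIG-I, the target of Trim25, had 4806 in TKO and 4466 in WT, 1.07-fold higher (1.03 to 1.11). Irf3, the target of Trim26, had 309 in TKO and 375 in WT, 1.22-fold lower (1.05 to 1.42). Tab2 and Tab3, targets of Trim30a, had ratios of 0.874 (0.845 to 0.905) and 1.09 (0.910 to 1.31). Of 12 measured LPS signalling genes 0 were called (median −0.00), of 13 ubiquitin-conjugating enzymes 0 (median −0.05), and of 11 measured partners of Trim28 in silencing 0 (median −0.02). Beside them stand 2.83% of all measured genes called higher and 5.26% called lower. In lists this short, 0 calls are near these shares. Within the Trim28 list, 3 genes were lower by the interval (27.3%, beside 20.2% of all measured genes and 27.9% at 50 CPM or more). They were Uhrf1 (278 counts in TKO and 389 in WT, 1.41-fold), the heterochromatin protein gene Cbx3 (1.36-fold, 1.19 to 1.56) and Dnmt1 (1.19-fold, 1.08 to 1.32). Another 3 were higher (27.3%, beside 14.1% of all measured genes and 27.3% at 50 CPM or more). These were Atf7ip (1.31-fold, 1.11 to 1.56), Chd4 (1.13-fold, 1.09 to 1.16) and Morc3 (1.08-fold, 1.01 to 1.16). The shares in both directions are near those of genes at 50 CPM or more. The methyltransferase gene Setdb1 had 401 counts in TKO and 405 in WT.

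**Figure D5:**
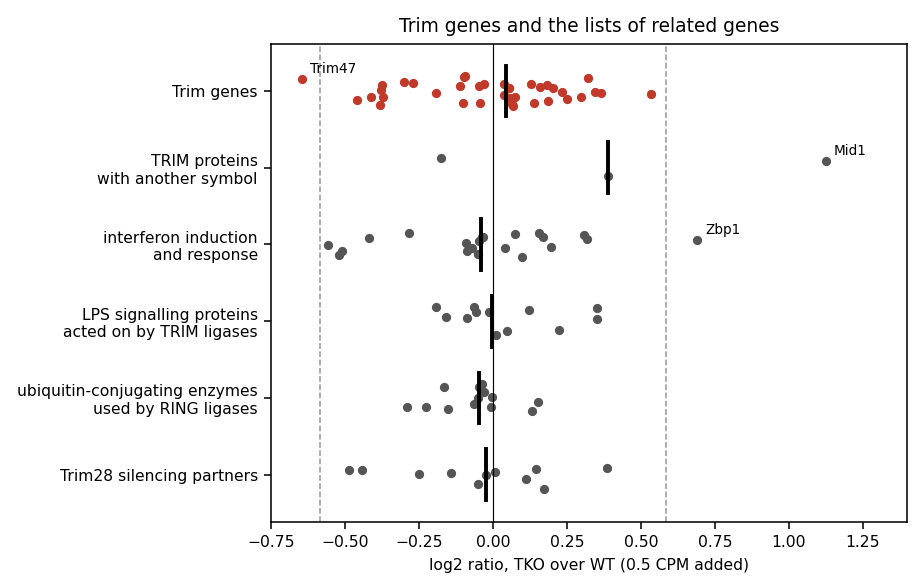
Log2 ratio of TKO over WT (0.5 CPM added) of the measured Trim genes (red) and of 5 lists of related genes (grey), 1 point per gene, with bars at the medians, dashed lines at 1.5-fold and a small random vertical offset. The genes named lie past a dashed line: Trim47, Mid1 and Zbp1.

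The targeted clusters encode microRNAs of 4 seed families, the seed being bases 2 to 8 that pair with a target. For each family the mature sequence of 1 member is shown (RefSeq, GRCm38.p6), with the seed in capitals.
miR-17-5p: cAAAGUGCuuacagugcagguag
miR-18a-5p: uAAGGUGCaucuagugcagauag
miR-19a-3p: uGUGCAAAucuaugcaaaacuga
miR-92a-3p: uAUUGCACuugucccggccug

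The miR-17 seed is shared by 6 of the microRNAs of the targeted clusters, the miR-92 seed by 3, which include miR-25 and miR-363, and the miR-18 and miR-19 seeds by 2 each. All 38 measured members had an annotated 3′ UTR, and 12 of them (31.6%) held at least 1 match opposite one of these seeds in the longest one. Over all measured genes with a 3′ UTR the share was 36.0%, and the median 3′ UTR was 1972 bases in TRIM genes and 1404 bases over all. The miR-17 match was in 5 members (13.2%), beside 15.5% of all genes. The 12 members with a match had a median log2 ratio of −0.04 and the 26 without had one of 0.06. The 26 include the 6 cluster genes with ratios above 1. Over all genes the medians were −0.01 with a match and −0.06 without.

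None of the 5 cluster genes that were higher by the interval held a match, and neither did Trim56. Of all measured genes with a 3′ UTR, 36.0% held one. Some of these cluster genes share sequence with one another, so they are not independent cases. An effect of lost pairing was not tested. The members with a match were Trim2, Trim3, Trim6, Trim8, Trim23, Trim25, Trim30b, Trim33, Trim35, Trim36, Trim37 and Trim39. Of these, Trim36 was higher by the interval, with 1 miR-17 and 1 miR-92 match, Trim25 was lower, with 1 miR-92 match, and the intervals of the other 10 included equality. Of all 4017 measured genes with a match, 724 were higher by the interval and 726 lower. The miR-92 match of Trim25 and the miR-17 matches of Trim37, Trim8, Trim3 and Trim6 are shown with 11 bases to each side (GENCODE M21, GRCm38, transcript strand), the match in capitals.
Trim25: gttgagacctaGTGCAATttccctgcaga
Trim37: cttaacagcttGCACTTTtcgttaataaa
Trim8: tcctacagggaGCACTTTatctgaatcat
Trim3: accccacggttGCACTTTatttattcggt
Trim6: tgttacattcaGCACTTTatgtttgctga

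These stretches lie at chr11:89020107-89020135 (+), chr11:87219440-87219468 (+), chr19:46516535-46516563 (+), chr7:105610883-105610911 (−) and chr7:104233892-104233920 (+). The 4 genes with the miR-17 match shown had ratios of 1.05 (0.887 to 1.25) for Trim37, 0.969 (0.881 to 1.07) for Trim8, 0.933 (0.797 to 1.09) for Trim3 and 0.674 (0.356 to 1.25) for Trim6. The intervals of these 4 ratios included equality, and the other member with a miR-17 match, Trim36, had a ratio of 1.09 (1.01 to 1.18).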

How the data were processed

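Per the submitters' processing notes, the tools were Bowtie2 2.2.5, HISAT2 2.0.4 and RSEM 1.2.12 and the build was mm10; the role of each, the annotation and strandedness are not given in the sources used here. Deposited by the authors were estimated counts per gene, which were rounded here, FPKM values, in which 0.01 stands for 0, and a log2 ratio of TKO over WT FPKM. The deposited p-value was not used, and the deposited adjusted value is treated as a score because some of its values are above 1. The deposited gene length was not used.

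Of 16219 entries, 1 without a symbol was left out (9.23e-06% of the TKO count and 9.29e-06% of the WT count), and 16218 remained. Library totals were 10836855 (TKO) and 10764519 (WT). CPM was computed from these totals, and log2 ratios after adding 0.5 CPM, so differences of low genes are understated. Measured genes had a mean over both libraries of 1 CPM or more. Ratios in the text are of CPM without that addition, with 95% Clopper-Pearson intervals (conditional binomial, scipy 1.17.1). Reads amplified by PCR are not independent molecules, so intervals and the floor of 3 counts cover counting error only. With 1 library per genotype no test across replicates was possible. Interval calls were tested on simulated data that held counting error only. That test cannot bear on spread between cultures or mice. Positions come from RefSeq GRCm38.p6, in which all 52 members matched, and promoters from the same table, which holds 40 of them. Seed matches were searched in the longest 3′ UTR of GENCODE M21. TMM factors came from edgeR 4.0.16 (R 4.3.3).

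The members and lists were chosen with earlier results of these data known. All members may be named, with full values for those called, the 10 highest, the near copies, those in the chromosome 17 and Itgax regions and those of antiviral or LPS signalling. Listed non-members are named where called, where their list is short, or after their values were seen. The alternatives tried were TMM and median-of-ratios scaling, additions of 0.1 and 1 CPM, no filter, a minimum of 10 CPM, the authors' FPKM, a 2-fold limit and no fold limit.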

Additional observations from a re-analysis of the deposited data

How the results depend on the processing

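The count of 0 TRIM genes called higher was the same under every scaling, addition, filter and unit tried, and under the 2-fold limit. The count of 1 called lower became 0 at a minimum of 10 CPM and 0 at the 2-fold limit, because Trim47 has few counts and is 1.62-fold apart. With no fold limit the counts were 7 higher and 6 lower. The median log2 ratio lay between 0.02 (no filter) and 0.09 (TMM). Of the 38 measured genes, Trim8 and Trim35 changed sign under TMM and Trim35 under median-of-ratios scaling, all within 0.05 of 0, and Trim2 was at 0 by FPKM. Trim56 came to 0.58 on the log2 scale under TMM, still under 1.5-fold. The 6 motif-bearing genes of the chromosome 7 cluster had ratios above 1 under each alternative that kept them (Trim5 is under the 10 CPM minimum), from 0.13 for Trim30d to 0.41 for Trim12c on the log2 scale. Scaling by TMM, chosen for the interval counts after seeing the data, moved the median of all genes by 0.05. No paired analysis was possible because each genotype has 1 library. Depth limits the 14 measured genes under 10 CPM, and no replicate could be left out.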
